A study of Homo sapiens with 4 samples.

Results

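SKLMS1 and SKN, a pair of established human leiomyosarcoma lines, were compared gene by gene. Leiomyosarcoma is a cancer of smooth muscle cells. Genes were kept when their FPKM (fragments per kilobase of transcript, corrected for sequencing depth) was 1 or more in either line, and 12541 of the 23577 genes in the table met this rule. Of these, 10671 reached 1 in both lines, 1067 in SKLMS1 alone and 803 in SKN alone, while 11036 genes stayed below 1 in both. The series held poly(A) RNA-seq of 4 lines, RKN, SKLMS1, SKN and SKUT1, each as 1 library of untreated cells grown in medium with 10% serum. The labels gave no allele, agent or further contrast for SKLMS1 or SKN, and a culture of an established line is a model without the stroma, vessels and immune cells of a tumour. With 1 library per line there was no replicate, so differences are given as sizes, without a test, and the spread between cultures of 1 line is unknown. Differences are log2(FPKM + 1) in SKLMS1 minus that in SKN, a scale that understates the difference of low genes. A gene is called 4-fold apart at 2 or more on this scale and 2-fold apart at 1 or more.

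Smooth muscle cells can hold a contractile state, with actin, calponin and myosin genes under serum response factor, or a synthetic state that makes matrix. Cells exposed to interleukin 1 or to other activators of NF-kB, a family of transcription factors kept in the cytoplasm by inhibitor proteins, secrete CXC chemokines, colony-stimulating factors and proteases. Signalling through RAS and the kinases MEK and ERK induces immediate early genes and also its own inhibitors, the dual-specificity phosphatases, Sprouty proteins and SPRED proteins. These 3 systems held many of the wider differences between the lines.

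By the rule applied here to each pair of lines, SKLMS1 and SKN were the pair with the highest rank correlation and the fewest genes 4-fold apart. Spearman's rho across their kept genes was 0.785, against 0.641 to 0.743 for the other 5 pairs of lines. These are correlations across genes of 1 library each, given as a description, since genes are not independent replicates. The share of kept genes 4-fold apart was 8.64% in SKLMS1 against SKN and 10.5 to 16.3% in the other pairs. The median of the absolute difference was 0.54 for this pair. Of the 12541 genes, 6649 (53.02%) lay within 1.5-fold and 9304 (74.2%) within 2-fold. The median difference was -0.02, so neither line was offset as deposited.

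At least 4-fold higher in SKLMS1 were 590 genes (4.7% of those kept), and at least 4-fold higher in SKN were 494 (3.94%). At 2-fold the counts were 1688 (13.5%) and 1549 (12.4%). At 16-fold, 136 genes were higher in SKLMS1 and 105 in SKN. The share of genes 4-fold apart was 3.81% among genes whose higher value lay from 1 to 5, 9.11% from 5 to 20, 10.3% from 20 to 100 and 14.5% from 100 upward. A gene below an FPKM of 3 in its higher line cannot pass on this scale. Among the 590 genes, 131 were listed at 0 in SKN, and among the 494, 75 were listed at 0 in SKLMS1. A listed 0 can be a failed estimate as well as silence, so such a gene is given as listed at 0 with no fold. Among the 10671 genes at 1 or more in both lines, 218 were higher in SKLMS1 and 218 in SKN.

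**Figure D1:**
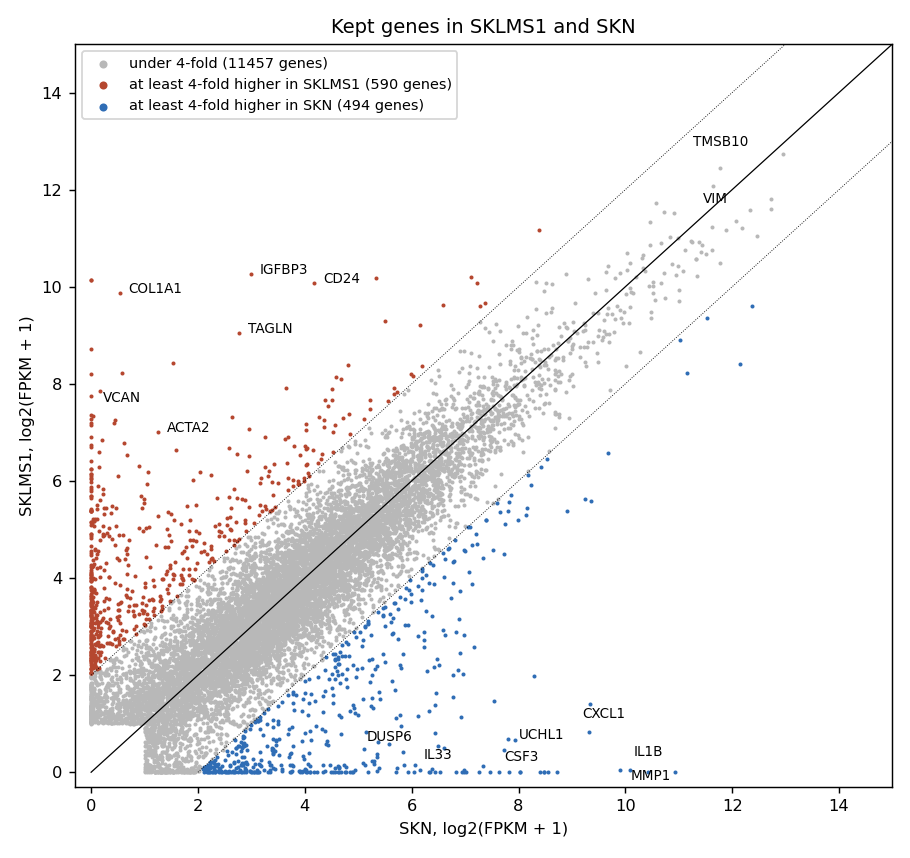
Each point is 1 of the 12541 kept genes, with log2(FPKM + 1) in SKN on the horizontal and in SKLMS1 on the vertical axis; the solid line marks equal values and the dotted lines 4-fold. The 590 genes in red and the 494 in blue lie outside the dotted lines, with collagen and contractile genes high at the left and IL1B, MMP1 and chemokine genes far to the right along the lower edge.

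Depth behind these values was similar in the lines. Read totals estimated from the steps between low values were 30600000 in SKLMS1 and 25200000 in SKN, so that 1 read on 2 kb of transcript corresponds to an FPKM of 0.0181 and 0.0220. For 3 reads the values were 0.0544 and 0.0661, and smaller values in the text rest on fewer reads than that for a transcript of this length. The columns summed to 494047 in SKLMS1 and 538300 in SKN. Rescaling both to the same sum moved the median difference of all genes by 0.11, from -0.02 to 0.09.

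Skeletal muscle and immune markers were low in both lines, while some markers of fibroblasts, epithelium, endothelium and neurons were present in 1 line or both. None of the 8 skeletal muscle markers reached 1 in either line, and of 8 immune markers only CD68, a lysosomal protein found in many cell types, did so (21.9 in SKLMS1 and 17.5 in SKN), while PTPRC, the pan-leukocyte marker CD45, was 0.0137 in SKLMS1 and listed at 0 in SKN. Of the 8 smooth muscle markers, 6 were kept, and their summed FPKM was 715 in SKLMS1 and 54.3 in SKN. MYH11, the smooth muscle myosin heavy chain, was 0.415 in SKLMS1 and 0.216 in SKN, and DES, desmin, was 0.191 and 0.347, so these 2 defining markers of mature smooth muscle stayed below 1 in both lines. The summed epithelial markers were 461 in SKLMS1 and 550 in SKN, made up largely of keratins, while CDH1, E-cadherin, was 0.936 and 0.0683. The summed fibroblast markers were 1131 in SKLMS1 and 0.935 in SKN, and the summed endothelial markers 0.210 and 76.9, with 2 of the 3 kept ones 4-fold higher in SKN. Whether RNA of other cells took part in any difference was not tested, and in RNA of a whole culture fewer cells with a transcript and less of it per cell cannot be told apart.

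Contractile genes lay toward SKLMS1. In the list of smooth muscle contractile proteins 34 of 39 genes were kept, of which 11 were 4-fold higher in SKLMS1 and 0 in SKN, and 18 and 2 were 2-fold apart. The median difference of the list was 1.03, against -0.02 over all kept genes. TAGLN, which encodes the actin-binding protein transgelin, was 531 in SKLMS1 and 5.82 in SKN (difference 6.29). ACTA2, the smooth muscle actin, was 127 and 1.37 (5.76). MYL9, the regulatory myosin light chain, was 1155 and 39.4 (4.84). These 3 genes were thus transcribed in SKN too, at a low level, whereas CNN1 (calponin) with 29.6 against 0.228 and PPP1R14A (the myosin phosphatase inhibitor CPI-17) with 42.2 against 0.0804 were below 1 there. TPM1, a tropomyosin, was 1177 in SKLMS1 and 138 in SKN. SKLMS1 was not the highest line for these genes, since SKUT1 had 3816 for TAGLN and 1085 for ACTA2. RKN held 45.5 for TAGLN and 84.7 for ACTA2, above SKN for both genes. Against the direction of the list, the adaptor TNS1 (tensin) was 2.06 in SKLMS1 and 7.96 in SKN, and FLNC (filamin C) 16.6 and 42.7, both named after their values were seen. Of the list of serum response factor cofactors and smooth muscle regulators 22 of 31 were kept, 2 were 4-fold higher in each line, and the median was 0.53. Its widest difference was CSRP2, a LIM protein of smooth muscle, with 158 in SKLMS1 and 5.21 in SKN.

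A CArG box, the sequence that serum response factor binds, was looked for on both strands of the 250 bases before the start of each gene in RefSeq's promoters. The search took only the letters CCWWWWWWGG, where W is A or T. Variants with another letter were not counted, so a gene without a match is not shown to lack the box. Of the 31 contractile genes with a promoter there, 5 held a match, and it was present in 1.14% of all 27305 promoters of the table and in 1.01% of those of kept genes. Among the widest genes of the list, ACTA2, CNN1, TPM1 and PPP1R14A held no match in the promoter searched, 1 per gene, and TAGLN and MYL9 were not among the 31. Among the genes 4-fold higher in SKLMS1 a match was found in 10 of 393 promoters (2.54%), and among those 4-fold higher in SKN in 4 of 339 (1.18%). The 3 contractile genes that were 4-fold higher in SKLMS1 and held a match are shown as examples of the letters searched, and no link to the difference was tested. MYLK, myosin light chain kinase, was 65.7 in SKLMS1 and 11.8 in SKN. CNN2, a calponin found outside muscle as well, was 226 and 51.6. FHL2, a LIM-domain cofactor, was 294 and 62.3. The sequences are the 120 bases before the start, in 5′ to 3′ direction of the gene, from RefSeq on GRCh38.p14, with the CArG box in capitals.
MYLK (chr3:123620549-123620668, minus strand): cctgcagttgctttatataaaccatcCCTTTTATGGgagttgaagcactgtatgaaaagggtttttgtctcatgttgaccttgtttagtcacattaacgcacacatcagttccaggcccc
CNN2 (chr19:1026488-1026607, plus strand): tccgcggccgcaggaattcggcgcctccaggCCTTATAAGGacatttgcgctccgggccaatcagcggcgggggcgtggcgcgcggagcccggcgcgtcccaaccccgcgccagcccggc
FHL2 (chr2:105438514-105438633, minus strand): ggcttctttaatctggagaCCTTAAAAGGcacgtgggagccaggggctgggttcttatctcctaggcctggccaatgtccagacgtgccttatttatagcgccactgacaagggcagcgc
The matches lie at -94 to -85 in MYLK, -89 to -80 in CNN2 and -101 to -92 in FHL2, counted from the start as -1 for the base before it. A match is a string of letters and was not measured as a bound site, and no factor's binding was measured here.

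Extracellular matrix genes differed in both directions. Of 43 collagen chains 22 were kept, and 7 were 4-fold higher in SKLMS1 and 2 in SKN, with a median of 0.86. COL1A1, a chain of type I collagen, was 939 in SKLMS1 and 0.447 in SKN (9.34). By the naming rule it had the widest difference toward SKLMS1, among genes of 10 or more not listed at 0 in SKN. The other chain of that trimer, COL1A2, was 77.5 and 0.113 (6.14). COL1A1 was listed at 0 in SKUT1 although COL1A2 was 5096 there, so a low COL1A1 value is uncertain in that library. COL8A1, a short-chain network collagen, was 36.2 in SKLMS1 and 0.0558 in SKN, and COL18A1, the source of endostatin, 202 and 21.7. Toward SKN lay COL4A5, a basement membrane chain, with 0.185 in SKLMS1 and 8.004 in SKN. The type VI chains COL6A1 (136 and 408), COL6A2 (156 and 491) and COL6A3 (29.7 and 81.7), named after their values were seen, were 2-fold higher in SKN. Type I and type VI collagen thus lay in opposite directions. Of 26 kept collagen processing enzymes 4 were 4-fold higher in SKLMS1 and 0 in SKN, among them ADAMTS2, which removes the N-propeptide of procollagen (8.81 and 0.0361), and BMP1, which removes the C-propeptide (63.5 and 12.7).

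Among proteoglycans and hyaluronan genes, 6 of 20 kept members were 4-fold higher in SKLMS1 and 2 in SKN. VCAN, the large hyaluronan-binding proteoglycan versican, was 160 in SKLMS1 and 0.0296 in SKN. LUM, lumican, was 75.3 in SKLMS1 and listed at 0 in SKN. SDC2, a syndecan of mesenchymal cells, was 78.1 and 0.852, and HSPG2, the basement membrane proteoglycan perlecan, 27.1 and 0.305. The hyaluronan synthases lay in opposite directions, with HAS2 at 0.127 in SKLMS1 and 4.17 in SKN and HAS3, named after its values were seen, at 19.4 and 3.93. Of 8 fibroblast markers 6 were kept, 4 were 4-fold higher in SKLMS1 and 0 in SKN, and PDGFRB, the PDGF receptor of pericytes and fibroblasts, was 33.7 against 0.00714.

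Laminin genes leaned to SKN, while elastic fibre genes and integrins were divided. In the list of elastic fibre and matricellular proteins 5 of 32 kept members were 4-fold higher in SKLMS1 and 8 in SKN, while the median was 0.23 and the mean -0.17, so the list has no single direction. ELN, elastin, was 0.0623 in SKLMS1 and 22.7 in SKN. LTBP2 was 4.47 and 118, and LTBP4 was 1.27 and 30.7; both belong to the latent TGF-beta binding proteins, which bind microfibrils. FBN2, a fibrillin, was 0.0986 and 8.03. On the other side SPP1, osteopontin, was 49.4 in SKLMS1 and 5.64 in SKN. Of 14 kept laminin and basement membrane genes 6 were 4-fold higher in SKN and 2 in SKLMS1, with a median of -1.12. LAMB3, a chain of laminin 332, the laminin of epithelial basement membranes, was 6.11 in SKLMS1 and 97.0 in SKN. LAMA3, another chain of that trimer, named after its values were seen, was 11.9 in SKLMS1 and 3.70 in SKN, against the direction of LAMB3. The laminin-binding integrin ITGA6 was 0.746 in SKLMS1 and 86.0 in SKN, and the collagen-binding ITGA2 was 0.0774 and 26.3. ITGB6, an epithelial integrin that activates TGF-beta, was 12.1 and 0.0359, and the 17 kept integrins held 1 gene 4-fold higher in SKLMS1 and 2 in SKN, with 5 in each direction at 2-fold and a median of 0.66.

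Inflammatory cytokines and chemokines were among the widest differences toward SKN, with IL1B, CXCL1, IL8, IL33 and CXCL5 among the 20 widest by the naming rule. Of 15 kept interleukin 1 family genes and receptors 7 were 4-fold higher in SKN and 0 in SKLMS1, with a median of -1.63. IL1B, interleukin 1 beta, was 0.0251 in SKLMS1 and 1090 in SKN (-10.06), the widest difference among the named genes. IL1A was 0.0238 and 40.05, and the alarmin IL33 was 0.0306 and 124. SIGIRR, an inhibitory receptor of the family, was higher in SKN as well, with 0.0226 and 19.8. The inflammatory caspases CASP4 (5.98 and 68.1) and CASP1 (0.143 and 3.92), the latter named after its values were seen, lay on the same side. The decoy receptor IL1R2, named in the same way, was 2.84 in SKLMS1 and 0.0318 in SKN. In RKN and SKUT1 IL1B was 0.0459 and 0.948, so SKN stood apart from the other 3 lines for this cytokine.

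Of 9 kept chemokines 6 were 4-fold higher in SKN and 1 in SKLMS1, and 23 listed chemokines were below 1 in both lines. CXCL1 was 0.775 in SKLMS1 and 641 in SKN, and IL8 (now named CXCL8) was 1.67 and 642. CXCL5 was 0.403 and 96.5, CXCL3 was 0.343 and 56.3, and CXCL2 was 0.488 and 46.4. These ligands of CXCR2 attract neutrophils. In RKN, CXCL1 was 43.8 and IL8 9.96, between SKLMS1 and SKN. CXCL12, the ligand of CXCR4 that stromal cells make constitutively, lay in the opposite direction with 32.8 in SKLMS1 and 0.386 in SKN. The colony-stimulating factors also split, with CSF3 (G-CSF) listed at 0 in SKLMS1 and 373 in SKN, CSF2 (GM-CSF) 0.112 and 34.0, and CSF1 (M-CSF) 63.7 and 2.75. IL32 was 151 in SKLMS1 and 0.368 in SKN. Of 14 kept cytokines and colony-stimulating factors 4 were 4-fold higher in SKLMS1 and 3 in SKN, so that list had no single direction.

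The 5 CXC genes lie next to each other among the kept genes, in the order IL8, CXCL1, CXCL5, CXCL3, CXCL2. The kappa-B site, the sequence that NF-kB binds, was looked for in their promoters on both strands. The search took only the letters GGGRNWYYCC, where R is A or G, W is A or T, Y is C or T and N is any base. The sequences are shown because the 5 neighbours shared the direction of the difference, and 4 of them share the same run of letters. Each is the 120 bases before the start, 5′ to 3′, from RefSeq on GRCh38.p14, with the match in capitals.
IL8 (chr4:73740449-73740568, plus strand): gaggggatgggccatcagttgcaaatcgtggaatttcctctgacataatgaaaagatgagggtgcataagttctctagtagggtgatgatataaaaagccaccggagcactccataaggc
CXCL1 (chr4:73869273-73869392, plus strand): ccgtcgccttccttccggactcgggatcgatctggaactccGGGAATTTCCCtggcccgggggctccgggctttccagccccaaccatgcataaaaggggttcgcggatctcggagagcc
CXCL5 (chr4:73998678-73998797, minus strand): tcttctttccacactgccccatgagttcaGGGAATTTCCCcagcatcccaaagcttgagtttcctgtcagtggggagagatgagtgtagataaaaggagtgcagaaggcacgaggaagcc
CXCL3 (chr4:74038690-74038809, minus strand): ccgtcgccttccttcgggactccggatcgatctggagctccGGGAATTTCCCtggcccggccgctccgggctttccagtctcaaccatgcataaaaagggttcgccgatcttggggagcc
CXCL2 (chr4:74099196-74099315, minus strand): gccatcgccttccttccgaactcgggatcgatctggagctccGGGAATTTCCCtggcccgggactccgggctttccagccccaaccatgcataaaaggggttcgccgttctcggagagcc
CXCL1, CXCL2, CXCL3 and CXCL5 hold the run GGGAATTTCCC, which the search counted as 2 overlapping matches, at -79 to -69 in CXCL1 and CXCL3, -78 to -68 in CXCL2 and -91 to -81 in CXCL5. IL8 holds no match of the searched letters in its 250 bases, which says nothing of the factor itself. Its printed stretch does hold tggaatttcc, which departs from the searched letters at the first base only, so IL8 is not shown to lack the site. The match was present in 5.05% of all promoters of the table, 5.87% of those of kept genes, 9.14% (31 of 339) of those 4-fold higher in SKN and 8.14% (32 of 393) of those 4-fold higher in SKLMS1. The letters were thus found on both sides of the comparison at close shares. TGANTCA, the AP-1 motif, was present in 3.74% of the promoters of kept genes, 7.08% of those 4-fold higher in SKN and 4.83% of those 4-fold higher in SKLMS1. Over all promoters of the table the share was 6.596%, so both groups lie above the kept genes, and SKLMS1 lies below the whole table.

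Genes of the NF-kB list other than the cytokines were kept in 37 cases, with 9 members 4-fold higher in SKN, 1 in SKLMS1 and a median of -0.44. The apoptosis inhibitor BCL2A1 was 0.0477 in SKLMS1 and 82.0 in SKN. The pentraxin PTX3 was 1.76 and 185, complement component C3 was 1.21 and 120, and the adhesion molecule ICAM1 was 0.107 and 56.8. NFKBIA, the inhibitor that NF-kB itself induces, was 35.8 and 252. The exception at 4-fold was VCAM1, an adhesion molecule, with 18.4 in SKLMS1 and 1.79 in SKN. The decoy receptor TNFRSF6B, which takes up FAS ligand, was 2.96 in SKLMS1 and 313 in SKN, yet the TNF ligand and receptor list had 4 members 4-fold higher in SKLMS1 and 3 in SKN. Interferon-stimulated genes were divided, with 5 of 56 kept members 4-fold higher in SKLMS1 and 4 in SKN and a median of -0.14. ISG20, an exonuclease of that list, was 1.26 in SKLMS1 and 53.9 in SKN. Of 20 kept antigen presentation genes 2 were 4-fold higher in SKLMS1, among them CD74, the invariant chain (12.6 and 0.0358), and 0 in SKN.

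**Figure D2:**
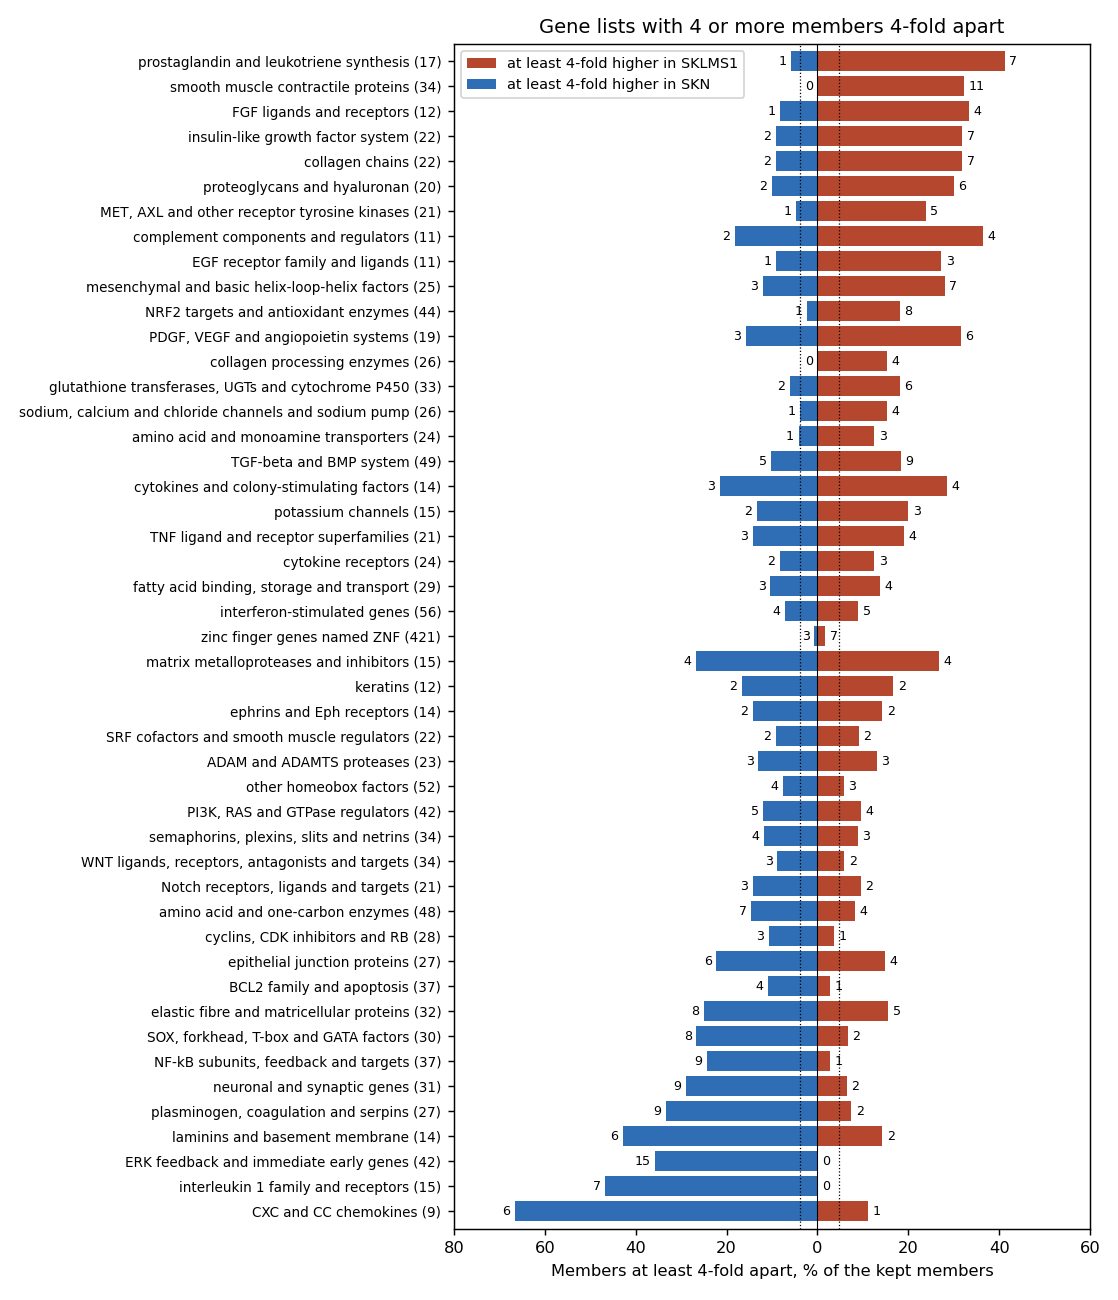
Bars give the share of the kept members of each gene list (their number in brackets) that were at least 4-fold higher in SKLMS1 (red, to the right) or in SKN (blue, to the left), with the count at the end of the bar; dotted lines mark the shares over all kept genes, 4.7% and 3.94%. The contractile list at 11 against 0 and the ERK feedback list at 0 against 15 show the 2 directions.

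Feedback inhibitors and early targets of the ERK pathway were higher in SKN. Of 49 genes in this list 42 were kept, 15 were 4-fold higher in SKN and 0 in SKLMS1, 24 and 3 were 2-fold apart, and the median was -1.24. DUSP6, the phosphatase that removes the activating phosphates of ERK, was 0.298 in SKLMS1 and 39.8 in SKN. SPRY4 was 0.116 and 19.4 and SPRY2 was 2.13 and 40.9; both are Sprouty inhibitors of receptor tyrosine kinase signalling. ETV4, an ETS transcription factor, was 0.947 and 55.0, and PHLDA1 was 5.01 and 74.2. The nuclear phosphatase DUSP4 was 1.25 in SKLMS1 and 23.9 in SKN. Other members, named after their values were seen, included ETV1 (0.104 and 9.27), ETV5 (4.06 and 37.1), SPRED1 (3.67 and 23.6) and the AP-1 subunit FOSL1 (68.6 and 289). Against this direction were ATF3 (3.26 and 0.206) and JUND (56.1 and 21.2). SKLMS1 was the lowest of the 4 lines for DUSP6, ETV4, SPRY4 and PHLDA1. For these genes RKN and SKUT1 lay between SKLMS1 and SKN in the plot of members by line. DUSP4 departed from this order, with 0.0765 in RKN, below its value in SKLMS1. No phosphorylated protein was measured here.

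**Figure D3:**
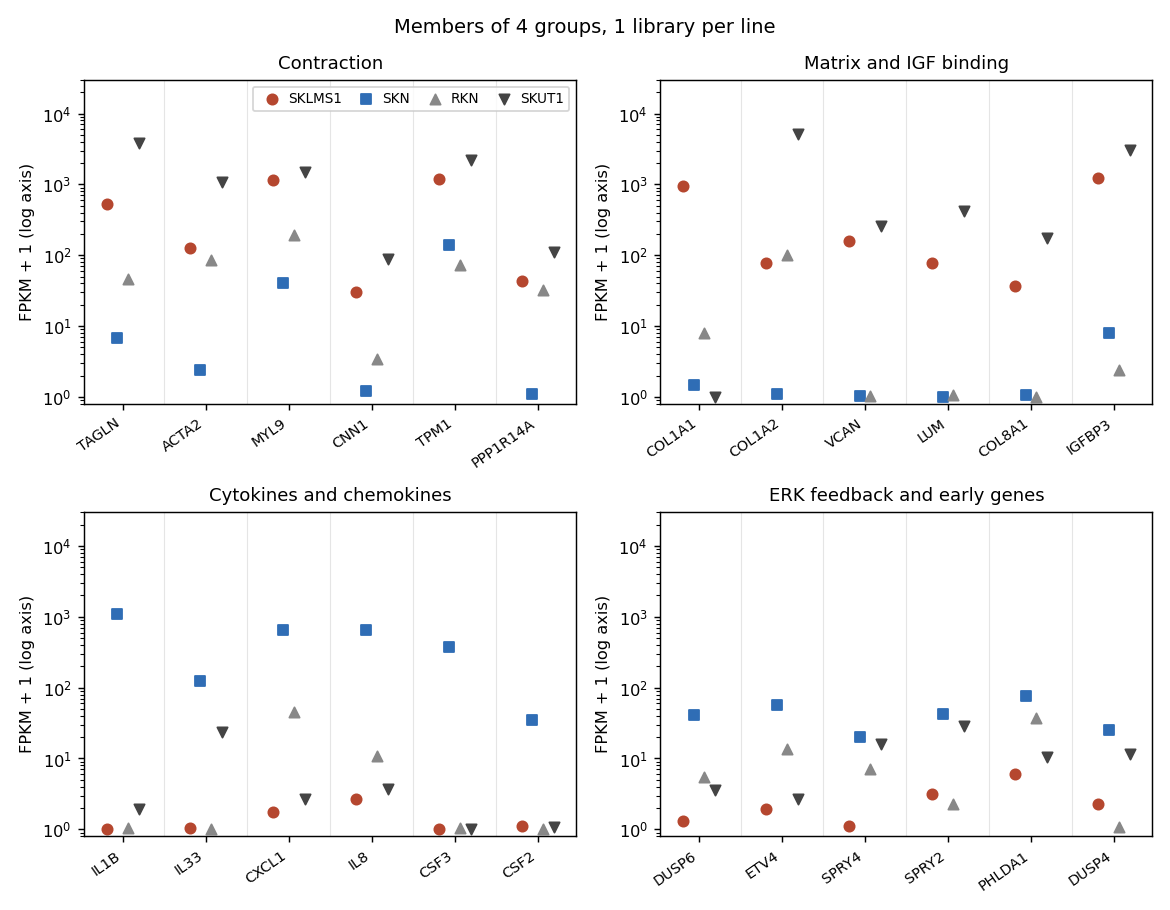
FPKM + 1 on a log axis for 6 members of each of 4 groups, with 1 point per library (1 library per line). The members were chosen with their values known, so the shared direction within a panel follows from the choice. SKLMS1 (red) lies above SKN (blue) for the genes shown in the upper panels, for example TAGLN at 531 against 5.82. It lies below SKN for those shown in the lower panels, for example IL1B at 0.0251 against 1090. Members that lay the other way, such as COL6A1, CXCL12 and CSF1, are not shown.

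Ligands and receptors upstream of this pathway lay more often toward SKLMS1. Of 12 kept FGF ligands and receptors 4 were 4-fold higher in SKLMS1, among them the receptors FGFR2 (10.1 and 0.0140) and FGFR4 (9.87 and 0.754) and the ligand FGF2 (19.9 and 3.82), and 1, the ligand FGF5, was 4-fold higher in SKN (0.0255 and 6.38). Of the EGF receptor family and its ligands 3 of 11 were 4-fold higher in SKLMS1 and 1 in SKN. EREG, epiregulin, was 17.8 in SKLMS1 and 0.00890 in SKN, and NRG1, neuregulin 1, was 43.8 and 2.47. LRIG1, which lowers the amount of EGF receptors, was 1.10 and 9.62. In the PDGF, VEGF and angiopoietin list 6 of 19 were 4-fold higher in SKLMS1 and 3 in SKN. PDGFB was 45.5 in SKLMS1 and 0.995 in SKN, so this ligand and its receptor PDGFRB were both higher in SKLMS1. The angiopoietin co-receptor TIE1 (0.0351 and 70.0) and placental growth factor, PGF (0.178 and 37.4), were higher in SKN. KDR, the main VEGF receptor of endothelium, was listed at 0 in SKLMS1 and 4.91 in SKN, while PECAM1 (0.0153 and 0.0463) and CDH5 (listed at 0 and 0.0702), defining endothelial markers, were near 0 in both lines. In the list of MET, AXL and other receptor tyrosine kinases 5 of 21 were 4-fold higher in SKLMS1 and 1 in SKN. GFRA1, the co-receptor of GDNF, was 50.4 and 0.00440, and PTN, pleiotrophin, was 36.4 and 0.0294. GDNF, the ligand that GFRA1 binds, was 1.34 in SKLMS1 and 8.40 in SKN.

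Several insulin-like growth factor binding proteins lay toward SKLMS1. In this system 7 of 22 kept genes were 4-fold higher in SKLMS1 and 2 in SKN, although the median was 0.28. IGFBP3 was 1230 in SKLMS1 and 6.96 in SKN (7.27), IGFBP5 was 20.2 and 0.0587, and IGFBP7 was 625 and 44.2. IGFBP1 was 7.46 in SKLMS1 and listed at 0 in SKN. PAPPA, the protease that cleaves binding proteins, lay the other way with 0.316 and 9.58, and so did its inhibitor STC1 with 7.57 and 48.3. IGFBP6 (119 and 78.4) and IGFBP2 (1.03 and 1.13), named after their values were seen, lay within 2-fold. IGFBP3 was higher still in SKUT1 (3096) and lower in RKN (1.39).

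TGF-beta and BMP genes differed in both directions. Of 49 kept members 9 were 4-fold higher in SKLMS1 and 5 in SKN, with a median of 0.24. The ligand TGFB2 was 42.5 in SKLMS1 and 0.215 in SKN. Of the activin subunits, INHBB was 42.8 and 0.381 and INHBA was 21.4 and 210. Of genes that BMP signalling induces, ID1 was 593 and 70.8, ID2 was 50.5 and 0.918, and BAMBI, a pseudoreceptor, was 24.8 and 0.363. ID3, named after its values were seen, was 156 and 25.2. The BMP antagonist GREM1 (24.6 and 140), and endoglin, ENG (10.8 and 71.6), both named likewise, lay toward SKN. SNAI1, a repressor of epithelial genes, was 67.8 in SKLMS1 and 8.87 in SKN.

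Genes of plasminogen and coagulation lay more often toward SKN. Of 27 kept genes of plasminogen, coagulation and serpins 9 were 4-fold higher in SKN and 2 in SKLMS1, with a median of -0.71 that became -0.019 among the 21 members with an FPKM of 5 or more in either line. The urokinase receptor PLAUR was 3.25 in SKLMS1 and 77.1 in SKN, and the plasminogen activator PLAT was 0.321 and 15.8. PLAU, urokinase itself, named after its values were seen, was 46.0 and 192. Thrombomodulin, THBD, was 9.97 in SKLMS1 and listed at 0 in SKN. Matrix metalloproteases were divided at 4 against 4 of 15 kept genes of the list. The interstitial collagenase MMP1 was 0.0382 in SKLMS1 and 953 in SKN (-9.84), and stromelysin MMP3 was listed at 0 and 5.17. MMP24 was 17.8 and 1.13 and the inhibitor TIMP3 was 18.6 and 0.0373.

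Prostaglandin and leukotriene genes lay more often toward SKLMS1. Of 17 kept members 7 were 4-fold higher in SKLMS1 and 1 in SKN, and the median was 0.85. PTGIS, prostacyclin synthase, was 146 in SKLMS1 and listed at 0 in SKN. PTGES, a prostaglandin E synthase, was 65.7 and 8.09, and the receptor PTGFR was 11.01 and 0.664. On the leukotriene side ALOX5AP, the 5-lipoxygenase activating protein, was 1.95 in SKLMS1 and 108 in SKN. Antioxidant genes leaned to SKLMS1, with 8 of 44 kept members 4-fold higher there and 1 in SKN and a median of 0.62. HMOX1, heme oxygenase, was 237 in SKLMS1 and 21.8 in SKN. The aldo-keto reductase AKR1C1 was 48.3 and 0.973, AKR1C2 was 5.80 and 0.0358, and AKR1B10 was 7.72 and 0.0850. These enzymes are near-identical copies, so reads may be divided unevenly among AKR1C1, AKR1C2 and AKR1C3. Of the 8 kept genes whose symbol starts with AKR, 4 were 4-fold higher in SKLMS1 and 0 in SKN. Mitochondrial SOD2, which NF-kB also induces, was named after its values were seen and lay toward SKN with 51.1 and 232. Of 33 kept glutathione transferases, UGTs and cytochromes P450, 6 were 4-fold higher in SKLMS1 and 2 in SKN. GSTM1, a gene commonly deleted in the population, was 41.0 in SKLMS1 and listed at 0 in SKN. TGACNNNGC, the core of the antioxidant response element, was present in 9.67% of the promoters of genes 4-fold higher in SKLMS1 in 12.05% of those of kept genes and in 11.03% of all promoters.

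Genes of kidney tubule type were found among the widest differences toward SKLMS1. FXYD2, a sodium pump subunit of the kidney tubule, was 95.3 in SKLMS1 and 0.108 in SKN. HAVCR1 (kidney injury molecule 1) was 104 in SKLMS1 and PDZK1IP1 was 67.4, and both were listed at 0 in SKN. A list of 52 kidney tubule and nephric duct genes was therefore drawn up after these values were seen. In it 23 were kept, 12 were 4-fold higher in SKLMS1 and 4 in SKN, and the count is a description of a list chosen on these samples. The 4 toward SKN were the brush-border peptidases ANPEP (10.98 in SKLMS1 and 106 in SKN) and MME (0.138 and 6.11) and the transcription factors GATA3 (0.0680 and 3.66) and WT1 (listed at 0 and 4.67). CDH16, kidney-specific cadherin, was 9.34 and 0.0299, CDH6 was 20.7 and 1.03, and KCNJ16 was 8.47 and 0.0729. FXYD2 and CDH16 were each at most 0.0166 or listed at 0 in RKN and SKUT1. The transcription factor PAX2 and the tubule transporters LRP2 and SLC22A6 were listed at 0 in SKLMS1, and PAX8, a factor of kidney and Mullerian epithelium, was 48.1 in SKLMS1 and 195 in SKN. Among keratins, KRT19 was 146 and 0.342, KRT18 was 42.8 and 283, and KRT8, which pairs with both, was 268 and 265. Of 9 kept claudins, tight junction proteins, 4 were 4-fold higher in SKN, among them CLDN11 (20.2 and 160) and CLDN1 (13.9 and 109), and 0 in SKLMS1.

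Further genes among the widest differences belong to none of these groups. Toward SKLMS1, CD24, a surface glycoprotein of epithelial and progenitor cells, was 1079 in SKLMS1 and 17.1 in SKN. EEF1A2, a translation elongation factor usually limited to muscle and neurons, was 343 and 1.88. The secreted proteins CRISPLD2 (114 and 0.153) and EDIL3 (109 and 0.540), TPD52L1 (91.5 and 0.592) and the death-associated kinase DAPK1 (67.7 and 0.412) followed. Listed at 0 in SKN were KCNIP1, a potassium channel partner (154 in SKLMS1), CLIC3, a chloride channel family member (64.6), SYT13, a synaptotagmin (62.0), CREB3L1, a membrane-bound transcription factor of secretory cells (48.8), and the receptor GPR15 (34.8). CREB3L1 was 36.8 in RKN and 86.6 in SKUT1, and whether its listed 0 in SKN is a failed estimate was not tested. Toward SKN, EMP1, an epithelial membrane protein, was 0.587 in SKLMS1 and 242 in SKN, and DNER, a transmembrane protein that binds Notch, was 0.0952 and 160. RCN3, a calcium-binding protein of the endoplasmic reticulum, was 0.453 and 89.0, with 86.5 in RKN and 285 in SKUT1. The trypsinogen PRSS3 was 0.108 and 65.4, and the carboxypeptidase CPVL 0.0655 and 51.6. Listed at 0 in SKLMS1 were the interleukin 13 decoy receptor IL13RA2 (176 in SKN), the protease inhibitor SLPI (65.0), podoplanin, PDPN (60.01), the neurotensin receptor NTSR1 (35.3), the endothelial cell proteoglycan ESM1 (28.3), MYEOV (27.6), the fucose enzyme FUOM (24.7) and the G protein subunit GNA15 (24.0). SLPI was listed at 0 in RKN and SKUT1 as well, and IL13RA2 was 351 in RKN and 11.9 in SKUT1.

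HOX clusters and lineage factors lay in different directions. HOX genes record position along the body axis in blocks of neighbours. Of the 8 kept HOXB genes 3 were 4-fold higher in SKN and 0 in SKLMS1 (median -1.80), with HOXB5 at 0.121 in SKLMS1 and 7.34 in SKN and HOXB6 at 1.70 and 15.9. Of 5 kept HOXD genes 3 were 4-fold higher in SKN and 0 in SKLMS1, and HOXD10 was listed at 0 in SKLMS1 and 4.73 in SKN. HOXC genes lay toward SKLMS1, where 2 of 6 were 4-fold higher, HOXC10 (9.03 and 0.606) and HOXC9 (7.29 and 0.973), and 0 in SKN. In the HOXA cluster HOXA4 was 6.46 in SKLMS1 and 0.0776 in SKN. Of SOX, forkhead, T-box and GATA factors 8 of 30 kept members were 4-fold higher in SKN and 2 in SKLMS1. SOX9, the cartilage factor, was 1.85 in SKLMS1 and 33.0 in SKN. Neuronal and synaptic genes gave 9 of 31 toward SKN and 2 toward SKLMS1, with a median of -0.32. UCHL1, a ubiquitin hydrolase of neurons, was 0.601 in SKLMS1 and 223 in SKN, and NCAM1 was 0.103 and 12.5. Of 8 neural markers 3 were kept, with a median of 1.47 toward SKLMS1 and a summed FPKM of 129 in SKLMS1 and 30.0 in SKN, nearly all of it from TUBB3, a neuronal tubulin (124 and 27.8). The glial markers SOX10, listed at 0 in both lines, and GFAP, at 0.102 and 0.0137, were at or near 0.

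Cell division, DNA replication and DNA repair genes differed little, while ribosomal protein genes leaned to SKN. Of 50 cell division genes 50 were kept, 0 were 4-fold apart and 48 lay within 2-fold, with a median of 0.16. Of 54 DNA replication genes 0 were 4-fold apart and 49 lay within 2-fold, and of 57 DNA repair genes 0 and 53. Among 421 kept genes named ZNF, 7 were 4-fold higher in SKLMS1 and 3 in SKN, below the background share. The 79 kept ribosomal proteins had a median of -0.49, with 14 at least 2-fold higher in SKN and 1 in SKLMS1. The summed FPKM of the ribosomal protein list was 68374 in SKLMS1 and 103854 in SKN. RPS28 was 0.370 in SKLMS1, 211 in SKN, 146 in RKN and listed at 0 in SKUT1. These low values are uncertain, and whether they are failed estimates was not tested. Respiratory chain genes had a median of 0.27 and 72 of 79 within 2-fold. The exceptions at 4-fold were UQCRH, the hinge subunit of complex III (299 in SKLMS1 and 0.493 in SKN), and its near-identical copy UQCRHL (231 and 0.119), which share reads. In RKN and SKUT1 UQCRH was 372 and 161. The low values in SKN are uncertain, as for RPS28, and whether they are failed estimates or absent transcripts was not tested. UQCRH is among 32 genes above 10 in 3 lines but under 1 in SKLMS1 or SKN. COL1A2, PPP1R14A, ID2, KRT19, UCHL1, PLAT, LRRC41 and MTAP are among them too, so the same limit applies to these. The gene next to UQCRH, LRRC41, a ubiquitin ligase adaptor, was 58.8 and 0.0861, and in RKN and SKUT1 it was 17.6 and 50.3. MTAP, an enzyme of methionine salvage, was listed at 0 in SKLMS1 and 17.9 in SKN, with 35.9 in RKN and 14.6 in SKUT1. Its neighbours CDKN2A (0.549 and 0.125) and CDKN2B (0.00887 and 0.0108) were below 1 in both lines. The 6 transcripts highest in the lower of the 2 lines were TMSB10, thymosin beta 10 (6851 and 7948), GAPDH (3564 and 6797), ACTB (5542 and 3509), the galectin LGALS1 (4290 and 3205), the ribosomal RPL37A (3108 and 6787) and vimentin, VIM (3053 and 5162).

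RKN and SKUT1 were used to see which of the 2 lines stood apart. Of the 590 genes 4-fold higher in SKLMS1, both other lines were nearer SKN for 225 (38.1%) and nearer SKLMS1 for 106 (18.0%). Of the 494 genes 4-fold higher in SKN, both were nearer SKLMS1 for 237 (48.0%) and nearer SKN for 68 (13.8%). In the remaining genes RKN and SKUT1 divided. Of the genes higher in SKLMS1, 180 had SKUT1 alone near SKLMS1 and 79 had RKN alone, and VCAN (257 in SKUT1 and 0.0223 in RKN) and TAGLN were among the former. Where RKN and SKUT1 agreed, they were thus more often near the lower than the higher of the 2 lines, and these shares rest on 1 library of each.

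Genes that differed also lay side by side. Gene order was taken from RefSeq, which held 12274 of the kept symbols (97.9%), and only the order was used. Runs of 3 or more neighbouring kept genes, each 4-fold higher in the same line, numbered 15, of which 5 were higher in SKLMS1 and 10 in SKN, with 55 genes in all. The glutathione transferases GSTM2 (8.02 and 0.0396), GSTM1 and GSTM3 (26.6 and 4.999) ran on into CSF1, and reads may be shared among these similar transferases. AKR1C1, AKR1C2 and AKR1C3 formed another run, as did CSF1R (5.48 and 0.437), PDGFRB and ARSI (7.23 in SKLMS1, listed at 0 in SKN). Toward SKN lay IL1A, IL1B and PSD4, and the 5 CXC genes whose promoters are printed above. Runs that hold near-identical copies or a host gene and its small RNAs, such as GAS5 with SNORD47 and SNORD80, need not be separate events.

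The longest run held 8 genes, from PPFIBP1 (7.98 in SKLMS1 and 118 in SKN) to ERGIC2 (35.9 and 168), and lay in a longer stretch. In windows of 15 neighbouring kept genes the median difference ran from -2.46 to 1.61 over 11948 windows, with 156 at 1 or more and 218 at -1 or less. Overlapping windows merged into 34 stretches, 18 higher in SKLMS1 and 16 in SKN. The stretch with the lowest median ran from STRAP to GXYLT1. It held 61 genes, of which 45 were 2-fold higher in SKN, 23 of them 4-fold, and 2 were 2-fold higher in SKLMS1, with a median of -1.78. RASSF8, a Ras association domain gene in it, was 6.45 in SKLMS1 and 113 in SKN, BCAT1, the cytosolic branched-chain aminotransferase, 22.8 and 126, and PTHLH, parathyroid hormone-like hormone, 1.26 and 15.7. The mitochondrial fission GTPase DNM1L was 28.9 and 147, and IPO8, an importin, 8.33 and 82.8. These genes have unlike functions. LDHB, a lactate dehydrogenase subunit in the same stretch, differed less (875 and 1721). Copy number was not measured here. Next by median, both higher in SKN, were the stretches from H2AFX to ADAMTS15 (57 genes, -1.29) and from FAM76B to PCSK7 (-1.29), and the latter, with 66 genes, held more genes than any other stretch.

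**Figure D4:**
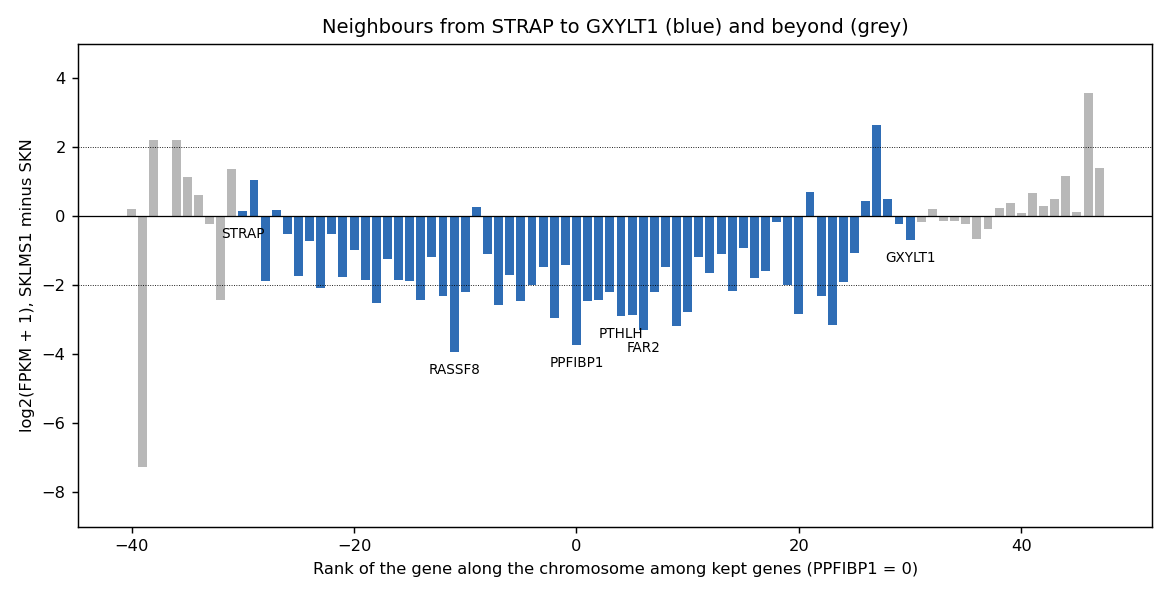
Bars give log2(FPKM + 1) in SKLMS1 minus SKN for kept genes in their order along the chromosome, with PPFIBP1 at 0; blue marks the 61 genes from STRAP to GXYLT1, grey the genes beyond, and dotted lines mark 4-fold. Of the blue bars 45 reach -1 or lower. Beyond the ends the bars lie on both sides of 0, and some pass 4-fold, such as EMP1 (-7.26) and AMIGO2 (3.56).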

How the data were processed

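Poly(A) RNA of untreated cells was sequenced, with 1 library for each of 4 lines, and the libraries of SKLMS1 and SKN are compared here. Per the labels' protocols, TruSeq Stranded mRNA libraries, from RNA purified with RNeasy Plus kits, gave single-end reads of 75 bp on a NextSeq instrument. The deposited values are FPKM per gene symbol, made by the authors; per the submitters' processing notes the tools were STAR and Cufflinks and the build was hg19, with no version. The annotation is not given in the sources used here, nor is the strand setting or any filter, so reads of overlapping, antisense or near-identical genes may be shared.

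Of 23610 rows, 28 with a spreadsheet date for a symbol and 5 with an error cell were left out. Genes that reached an FPKM of 1 in either line were compared as log2(FPKM + 1). Depth was estimated from the steps of low values of genes with 1 transcript in GENCODE, assuming fragments of 200 bases; 63.0% of 376 such values in SKLMS1 and 60.1% of 341 in SKN lay within 0.1 of a whole read, a unit that was fitted to the same values. No counts were recovered. Each line has 1 library, so sizes are given without tests, p-values or standard errors.

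The genes compared and the 84 gene lists were chosen with earlier results of these data known, and the kidney list and the windows of neighbours were added after values were seen. The text names, per direction, the 20 widest differences among genes of FPKM 10 or more in the higher line and not listed at 0 in the other, the 10 highest genes listed at 0 in the other line, up to 6 members per list with the widest difference, the 10 genes highest in the lower of the 2 lines, and up to 4 members per run of neighbours or symbol family. The first rules skip short and unplaced RNAs, some genes so chosen are not reported here, and others are marked as named after their values were seen. Gene order and promoters came from RefSeq (GRCh38.p14), for order and sequence only. Alternatives were other pseudocounts, TPM, median-of-ratios and quantile scaling, other filters, an 8-fold rule and other window sizes. The code was tested on simulated data. Computations used Python 3.11.15 with pandas 2.3.3, NumPy 2.4.6 and SciPy 1.17.1.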

Additional observations from a re-analysis of the deposited data

How the results depend on the processing

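The counts of genes 4-fold apart depended on the pseudocount, the filter, the fold rule and, less, on rescaling to TPM. With a pseudocount of 0.1 they were 1013 higher in SKLMS1 and 828 higher in SKN, with 5 they were 236 and 211, with an FPKM of 1 or more in both lines 218 and 218, at 8-fold 273 and 211, and on the TPM scale 816 and 597. The fewer genes at 8-fold, with the larger pseudocount and with both lines at 1 or more follow from how these rules are built. The TPM scale raised both columns while the pseudocount stayed at 1, so the pseudocount weighed less there. The share of 4-fold genes that were higher in SKLMS1, 54.4% as reported, was 57.7% on the TPM scale (which raised the median difference of all genes) and 50% with an FPKM of 1 or more in both lines, and no scaling moved it by over 10 percentage points. Spearman's rho of 0.785 became 0.907 with no filter and 0.711 with a minimum FPKM of 5, and the cause was not tested. Lists of 5 or more kept genes whose median was at least 0.5 from 0 in either direction numbered 32, and 16 with a pseudocount of 5. Runs of neighbours, 15 as reported, were 28 on the TPM scale and 2 with a pseudocount of 5. A pseudocount of 5 shrinks every difference. How much of the rise on the TPM scale came from the lighter pseudocount was not tested. The 34 stretches became 88 in windows of 9 genes and 12 in windows of 25. The widest in windows of 25 again lay within STRAP to GXYLT1. Leaving out the 877 genes of the stretches gave 502 and 405 genes 4-fold apart, and leaving out 32 genes above 10 in 3 lines but under 1 in SKLMS1 or SKN as the fourth gave 568 and 484; these alternatives and those of the runs and windows were chosen after seeing the data. The 70 genes named by the rules on wide, listed-at-0 and highest genes kept their direction and their side of 4-fold under both pseudocounts and all 3 scalings. They were chosen as wide differences or as high in both lines, so this outcome was largely set by the choice. Counted over lists and alternatives, 52 list medians moved by over 0.5 and 528 did not. No list median of 1 or more in size changed sign under any of the 7 alternatives run. No paired analysis was possible because each line has 1 library.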

Other observations

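Lipid, transport and heat shock lists each held some genes 4-fold apart, and several were divided. Over all kept genes the 4-fold shares were 4.7% toward SKLMS1 and 3.94% toward SKN. Of 44 kept genes of cholesterol and fatty acid synthesis 12 were 2-fold higher in SKLMS1 and 4 in SKN, and 3 were 4-fold higher in SKLMS1 and 0 in SKN. SCD, the stearoyl-CoA desaturase, was 165 in SKLMS1 and 27.5 in SKN, and INSIG1, which holds back sterol regulation, was 68.1 and 15.8. Of 29 kept genes of fatty acid binding, storage and transport 4 were 4-fold higher in SKLMS1 and 3 in SKN. PLIN2, a lipid droplet coat protein, was 119 and 11.9. Of 24 kept amino acid and monoamine transporters 3 were 4-fold higher in SKLMS1 and 1 in SKN, with a median of -0.13. SLC7A5 (281 and 23.1) and SLC6A6, the taurine transporter (118 and 8.59), lay toward SKLMS1, and SLC6A15 was listed at 0 in SKLMS1 and 8.89 in SKN. Of 23 kept ABC transporters 1 was 4-fold higher in SKLMS1 and 1 in SKN. The drug efflux pump ABCB1 was 9.11 and 0.00872. Of 27 kept heat shock genes 3 were 4-fold higher in SKLMS1 and 0 in SKN, with the small heat shock proteins HSPB8 at 28.5 and 0.175 and CRYAB at 15 in SKLMS1 and listed at 0 in SKN.

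Metallothioneins, which bind zinc and copper, were divided: MT2A was 475 in SKLMS1 and 2087 in SKN and MT1F was 5.68 and 52.8, while MT1L, a near-identical copy, was 221 and 49.6. The apolipoprotein L family, clustered genes that interferon induces, had 5 kept members, of which 2 were 4-fold higher in SKLMS1, with APOL1 at 98.6 and 2.01. Among 9 kept clustered protocadherins named PCDHB, 3 were 4-fold higher in SKLMS1 and 0 in SKN. Among 13 kept small nucleolar RNA host genes named SNHG, 3 were 4-fold higher in SKN and 1 in SKLMS1, and the host gene GAS5 was 94.7 in SKLMS1 and 815 in SKN. Of 69 cancer-testis antigens only PRAME was kept, at 1.05 and 5.32.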
